A study of Mus musculus with 30 samples.

Results

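The mesoderm and posterior transcription factors described here were 10 genes chosen by name, *Mesp1*, *Mixl1*, *Evx1*, *Cdx1*, *Cdx2*, *Tbx6*, *Snai1*, *Hand1*, *Eomes* and *Tbx4*, among 18194 genes measured on whole-genome Affymetrix arrays. They were read on 14 probe sets in 30 single cells collected as primordial germ cells (PGCs), the precursors of sperm and oocytes. The cells came from the base of the allantois of E7.25-E7.5 C57BL/6 mouse embryos with heterozygous *Prdm14* parents, and each had been picked one at a time and kept because a PCR for *Prdm1* was positive. The groups were 4 cells labelled *Prdm14* KO, 13 labelled *Prdm14*+/- and 13 labelled WT, and their genotypes had been called by PCR. No other allele and no treatment was given for any group. PRDM14 is a zinc finger protein that germ cells need for their reprogramming, and the study measured these cells for *Dppa3*, a gene of the germ cell lineage.

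The mouse germline arises from the posterior proximal epiblast under BMP signals from the neighbouring extraembryonic tissue, beside the cells that enter the primitive streak and become mesoderm. The same signals switch on mesoderm and posterior genes in the future germ cells, and *Prdm1*, which encodes the repressor BLIMP1, is known for turning a somatic program off as the germ cells are set apart. The 10 genes cover steps of that program. *Mixl1*, *Eomes* and *Mesp1* act in the streak and the earliest mesoderm, *Evx1*, *Cdx1* and *Cdx2* are homeobox genes of the posterior streak and tail end, and *Tbx6* specifies paraxial mesoderm. *Snai1* encodes a repressor of *Cdh1* that drives the change from epithelium to mesenchyme, *Hand1* belongs to extraembryonic mesoderm and heart, and *Tbx4* to the allantois and the hindlimb.

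Values are deposited log2 model-based expression index (MBEI) values, 1 array per cell, and a value of 6 (64 MBEI) was used as the floor. A gene is called above the floor in a cell when its value there exceeded 6. The number of arrays limits the precision, and since each label stands for cells whose embryos are not named, each label counts as 1 sample and no p-value is given. The promoters of 4 of the genes are printed here because they belong to genes at different ends of the range found below: *Evx1* was above the floor in nearly every cell, *Mesp1* was split between cells, *Snai1* was above it in a minority and *Eomes* in 2 cells. Each covers 250 bases before to 50 after the RefSeq start of the gene (build GRCm38.p6), read in the direction of the gene. Capitals mark matches, on either strand, to a T-box motif (TCACACC), a Snail-type E-box (CAGGTG), a TCF/LEF core (ATCAAAG) or a PRDM1 core (AGNGAAAG), and to a TATA box (TATAAA) on the strand of the gene. No match overlapped another in these sequences. *Evx1* lay at chr6:52313248-52313547 (plus strand), *Mesp1* at chr7:79793541-79793840 (minus strand), *Snai1* at chr2:167537945-167538244 (plus strand) and *Eomes* at chr9:118477939-118478238 (plus strand).
Evx1: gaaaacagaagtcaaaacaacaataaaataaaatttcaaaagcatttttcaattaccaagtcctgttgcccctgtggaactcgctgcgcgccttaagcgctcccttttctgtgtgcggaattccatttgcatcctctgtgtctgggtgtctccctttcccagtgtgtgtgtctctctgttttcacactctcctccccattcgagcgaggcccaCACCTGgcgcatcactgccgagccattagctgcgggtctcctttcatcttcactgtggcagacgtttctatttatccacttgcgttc
Mesp1: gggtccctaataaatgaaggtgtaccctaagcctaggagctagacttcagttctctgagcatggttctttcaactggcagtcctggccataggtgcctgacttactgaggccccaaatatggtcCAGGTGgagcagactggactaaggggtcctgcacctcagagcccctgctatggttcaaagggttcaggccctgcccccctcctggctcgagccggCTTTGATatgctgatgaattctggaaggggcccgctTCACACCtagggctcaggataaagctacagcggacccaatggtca
Snai1: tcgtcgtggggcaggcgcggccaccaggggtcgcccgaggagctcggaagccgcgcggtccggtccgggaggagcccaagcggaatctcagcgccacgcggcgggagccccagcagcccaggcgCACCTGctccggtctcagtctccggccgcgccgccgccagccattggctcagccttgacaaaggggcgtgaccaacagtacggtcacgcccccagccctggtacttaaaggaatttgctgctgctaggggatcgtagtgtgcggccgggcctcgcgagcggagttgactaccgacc
Eomes: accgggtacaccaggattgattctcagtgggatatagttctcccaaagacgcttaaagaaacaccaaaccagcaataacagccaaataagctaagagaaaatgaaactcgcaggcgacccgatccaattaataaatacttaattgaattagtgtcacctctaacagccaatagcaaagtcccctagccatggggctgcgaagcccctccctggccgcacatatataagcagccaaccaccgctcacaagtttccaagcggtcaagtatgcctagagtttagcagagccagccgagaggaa

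The *Mesp1* promoter held an E-box whose leftmost base was at -126 from the start, a TCF/LEF core on the opposite strand at -31 and a T-box motif at position 6. *Evx1* and *Snai1* each held 1 E-box on the opposite strand, at -37 and -126, and *Eomes* held none of the 5 motifs. Among all 32851 promoters of the same length, 20.2% held the E-box, 3.98% the T-box motif, 3.73% the TCF/LEF core, 8.63% the PRDM1 core and 8.32% the TATA box. The PRDM1 core matched in none of the 7 members whose promoter was searched, and a match or its absence describes only the letters in this window. CG dinucleotides numbered 34 in the *Snai1* promoter, a count reached by 7.73% of promoters, 12 in that of *Evx1*, 10 in that of *Eomes* and 4 in that of *Mesp1*, against a median of 7.

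Some facts of the whole data set bear on the results. *Prdm14* itself went against the labels. Cells above the floor numbered 4 of 4 under the *Prdm14* KO label (10.03 to 12.15), 12 of 13 under *Prdm14*+/- and 6 of 13 under WT, so the groups are named by their labels throughout, and every direction below rests on labels that this transcript does not bear out. Where the *Prdm14* probe set sits relative to the deletion is not stated in the sources read here. The share of probe sets listed at 0 was 60.3% to 63.6% in cells labelled *Prdm14* KO, 60.7% to 69.6% in those labelled *Prdm14*+/- and 58.9% to 69.3% in those labelled WT. The array codes give 3 runs. All 4 cells labelled *Prdm14* KO lay in run 3 with 6 cells labelled *Prdm14*+/-, run 2 held 7 labelled *Prdm14*+/- and 3 labelled WT, and run 1 held the other 10 labelled WT, so labelled KO and WT cells shared no run. Of 8 germ cell markers found, 7 were above the floor in at least 24 of the 30 cells, *Prdm1* in all of them.

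Several cells stood apart in the genes described here. *Foxf1*, a gene of the allantois and lateral mesoderm, was at 11.97, 11.16 and 9.99 in 3 cells labelled *Prdm14*+/- (replicate 3 of run 2, and replicates 11 and 12 of run 3) and at most 5.87 in every other cell. These 3 cells had the 3 lowest *Cdh1* values (8.51, 8.67 and 0), *Dppa3* at 0, 0 and 4.21, and *Prdm1* at 7.83, 8.08 and 10.72. The mean level over the other 6 allantois and extraembryonic mesoderm markers found was 6.92 to 7.90 in them, against 6.30 to 7.03 in cells labelled *Prdm14* KO, 6.62 to 7.71 in the other 10 labelled *Prdm14*+/- and 6.00 to 7.46 in those labelled WT. These ranges overlapped, and *Postn* and *Hoxa13* were above the floor in no cell. Of 11 blood and endothelial markers, 5 were above the floor in no cell, the embryonic globins *Hbb-bh1*, *Hbb-y* and *Hba-x* among them, as were 4 of 9 endoderm markers (*Afp*, *Ttr*, *Apoa1* and *Cubn*). Others of these lists were present: *Lmo2* was above the floor in 18 cells, *Kdr* in 10 and *Etv2* in 6, and *Sox17*, known in human germ cells as well as endoderm, in 23, with means of 10.92 under the *Prdm14* KO label, 8.70 under *Prdm14*+/- and 9.82 under WT. One cell labelled WT (replicate 11, run 2) had the highest *Eomes*, *Mixl1* and *Mesp1* values of all 30, with *Prdm1* at 8.04, *Dppa3* at 3.40, *Prdm14* at 0 and *Cdh1* at 11.16. The main changes without these cells in classes, label differences and correlations of the 10 factors are given below, a choice made after seeing the data. The most similar genes and the other mesoderm and posterior factors were computed only with these cells kept in. The part of other cell types in the results was not tested.

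The 10 factors, each read on its probe set of highest mean (its main probe set), fell into 3 classes. *Cdx2*, *Evx1* and *Hand1* were above the floor in most cells (at least 24 of 30), *Mesp1*, *Cdx1*, *Tbx6*, *Snai1* and *Mixl1* in some, and *Eomes* and *Tbx4* in few (at most 6). Over all 18194 genes 25.3% were in the class of most cells, 26.8% in that of some and 47.9% in that of few, so 3, 5 and 2 of 10 is a description of these genes against that background. The classes were the same without the 3 *Foxf1* cells and without the cell with the highest *Eomes*.

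**Figure D1:**
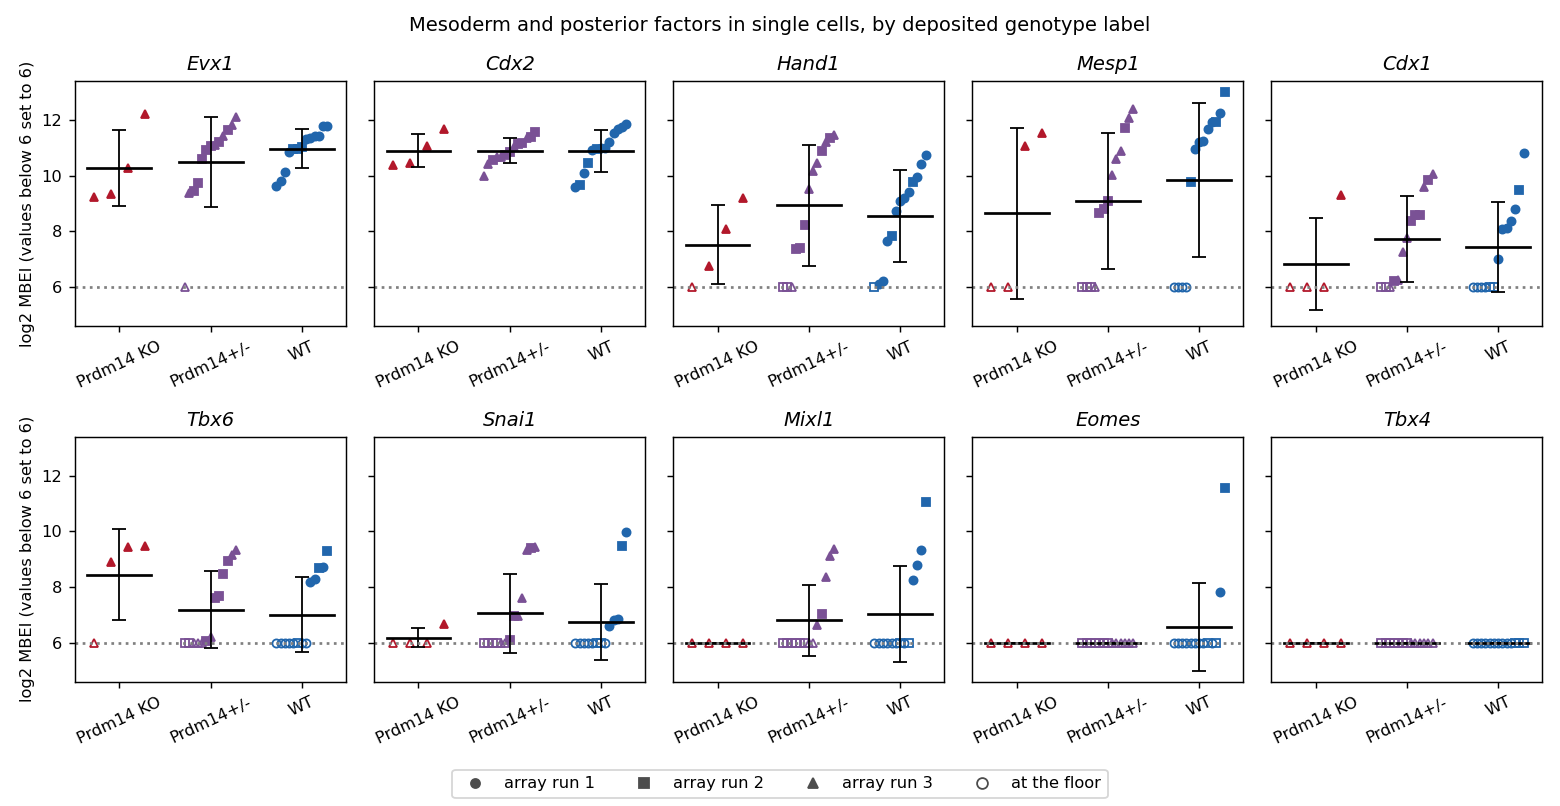
Deposited log2 MBEI of each factor in each cell, with values below 6 set to 6, by genotype label (Prdm14 KO, Prdm14+/-, WT). Symbols give the array run, open symbols cells at the floor, black bars the mean and SD over cells. On the main probe set of each gene, Cdx2 lies above 9.57 in all 30 cells, Mixl1 is at the floor in all 4 cells labelled KO, and Tbx4 is at the floor in every cell.

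The posterior homeobox genes *Evx1* and, on 1 of its 2 probe sets, *Cdx2* were above the floor in nearly every *Prdm1*-positive cell. *Cdx2*, a caudal-type homeobox gene that patterns the posterior axis, was above the floor in 30 of 30 cells on its main probe set. Its values were 11.67, 11.09, 10.47 and 10.39 in cells labelled *Prdm14* KO. Those labelled *Prdm14*+/- ranged from 10.002 to 11.58 with a median of 10.84, and those labelled WT from 9.58 to 11.87 with a median of 10.999. No label stood out, and the SD over the 30 cells was 0.60. The other *Cdx2* probe set was above the floor in only 4 cells, all labelled *Prdm14*+/- (highest 9.06), and correlated with the main one at r = -0.05, so the 2 probe sets of this gene disagreed.

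*Evx1*, an even-skipped type homeobox gene of the posterior streak, was above the floor in 29 cells. It was at 12.22, 10.28, 9.36 and 9.25 in cells labelled *Prdm14* KO. In cells labelled *Prdm14*+/- it was listed at 0 in 1 cell of run 3, the median was 11.08 and the highest value 12.12. Cells labelled WT ranged from 9.64 to 11.80 with a median of 11.04. Of the 4 cells labelled *Prdm14* KO, 3 lay below both of those medians and 1 had the highest value of all 30, and the ranges overlapped. The cell at 0 (replicate 13) had *Dppa3* at 12.12 and *Prdm1* at 11.83, and its array listed 65.7% of probe sets at 0.

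*Cdx1*, the caudal homeobox gene that responds to retinoic acid and WNT signals, did not go with *Cdx2*: it was above the floor in 18 cells, and over the 30 cells the pair correlated at r = 0.06. Cells labelled *Prdm14* KO had 9.33, 4.87, 0 and 0. It exceeded the floor in 10 of 13 labelled *Prdm14*+/- (median 7.75, highest 10.06) and in 7 of 13 labelled WT (median 7.01, highest 10.83). Thus 1 of 4 cells labelled *Prdm14* KO carried *Cdx1* while most labelled *Prdm14*+/- did, with overlapping ranges, and runs did not divide the cells, since 6 of 10 were above the floor in each of the 3 runs.

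The streak and early mesoderm genes were split between cells or off. *Mesp1*, a basic helix-loop-helix gene of the nascent mesoderm, divided the cells into 2 sets with a gap between them: 20 cells had 8.66 or more and the other 10 had 5.83 or less. Cells labelled *Prdm14* KO had 11.55, 11.07, 5.15 and 5.08. The median was 9.08 in cells labelled *Prdm14*+/- (0 to 12.40, 9 of 13 above the floor) and 11.21 in those labelled WT (0 to 13.01, also 9 of 13). Both sets of cells were present under every label. All 3 cells labelled WT in run 2 were in the high set, whereas 4 of 7 labelled *Prdm14*+/- in that run and 5 of 6 in run 3 were.

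*Mixl1*, a homeobox gene of the primitive streak, was listed at exactly 0 in 21 cells and above the floor in 9. It was at 0 in all 4 cells labelled *Prdm14* KO. In cells labelled *Prdm14*+/- it reached 9.38, 9.11, 8.34 and 6.62 in 4 of 6 cells of run 3 but 7.03 in only 1 of 7 cells of run 2. Cells labelled WT had 11.06, 9.34, 8.79 and 8.25 in 4 of 13. The gene was therefore present in a minority of cells under 2 of the labels, 3 of its 9 cells were the *Foxf1* cells, and with 4 cells labelled *Prdm14* KO a share like that of the others cannot be told from none.

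*Eomes*, a T-box gene that directs cells out of the epiblast toward mesoderm and endoderm, was above the floor in 2 cells, both labelled WT. Replicate 11 (run 2) was at 11.58 and replicate 3 (run 1) at 7.82, and the second probe set was above the floor in the same 2 cells, at 9.91 and 9.59. In every other cell it was at most 3.93, and it was listed at 0 in all 4 cells labelled *Prdm14* KO. *Tbx4*, a T-box gene of the allantois and hindlimb, was above the floor in no cell on either of its 2 probe sets. Its highest value, 5.11, was in replicate 3 labelled *Prdm14*+/-, one of the *Foxf1* cells.

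*Tbx6*, a T-box gene of the paraxial mesoderm, was above the floor in 16 cells. Its values were 9.46, 9.45, 8.88 and 4.02 in cells labelled *Prdm14* KO. It exceeded the floor in 8 of 13 labelled *Prdm14*+/- (median 6.19, highest 9.32) and 5 of 13 labelled WT (median 4.33, highest 9.28). The highest 2 values of all cells were in cells labelled *Prdm14* KO, and the fourth such cell lay among the low ones. By run, 3 of 10 cells of run 1, 7 of run 2 and 6 of run 3 were above the floor.

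*Snai1* was above the floor in 13 cells, and in 7 of these its value was under 7. Cells labelled *Prdm14* KO had 6.68, 2.20, 0 and 0. In cells labelled *Prdm14*+/- the median was 6.10, and the highest values, 9.43, 9.39 and 9.31, were those of the 3 *Foxf1* cells. Cells labelled WT had a median of 4.25, with 9.97 in 1 cell and 9.46 in the cell with the highest *Eomes*. High *Snai1*, above 9, was thus found in 5 cells, 4 of which were among those that stood apart.

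*Hand1*, a basic helix-loop-helix gene of extraembryonic mesoderm, was above the floor in 25 cells. Cells labelled *Prdm14* KO had 9.21, 8.09, 6.75 and 0. The median was 9.51 in cells labelled *Prdm14*+/- (0 to 11.48) and 9.09 in those labelled WT (5.97 to 10.73). The 3 highest values of all cells, 11.48, 11.36 and 11.22, belonged to the *Foxf1* cells. The second probe set was above the floor in 9 cells, all of which the main one also called, and in none labelled *Prdm14* KO, with r = 0.70 between the 2 over the 30 cells.

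**Figure D2:**
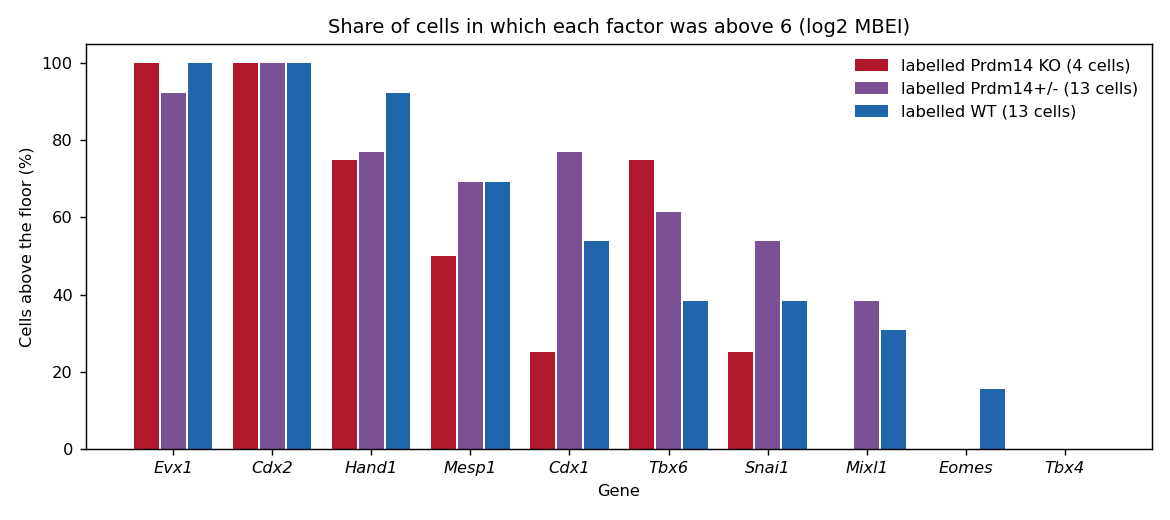
Percentage of cells above the floor of 6 (log2 MBEI) for each factor, bars by genotype label (Prdm14 KO 4 cells, Prdm14+/- 13 cells, WT 13 cells). On the main probe set of each gene, Cdx2 is at 100 in all 3 labels, Mixl1 at 0, 38.5 and 30.8, and Tbx6 at 75, 61.5 and 38.5.

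The comparison of labels asked whether these factors differ with the *Prdm14* genotype. Differences are means of floored log2 values, with the SD between cells pooled over the 2 labels, and a difference of at least 1 was counted. Between cells labelled *Prdm14* KO and WT, *Tbx6* was higher by 1.44 (pooled SD 1.42, means 8.45 and 7.01) and 3 members were lower. *Mesp1* differed by -1.19 (pooled SD 2.83, means 8.65 and 9.85), *Hand1* by -1.04 (1.61, means 7.51 and 8.55) and *Mixl1* by -1.03 (1.54, means 6.00 and 7.03). Of all genes, 7.9% were higher and 4.32% lower by this size. Each of the 3 lower values was smaller than its SD between cells. The count of lower members was 1 without replicate 3 labelled *Prdm14* KO (only *Mixl1* kept it), 5 without replicate 4 and 1 without the WT cell with the highest *Eomes* (*Hand1*, -1.25). The share of all genes was not computed without these cells. The median difference of the 10 members was -0.59. Over all genes it was 0, a value that the floor favours, since 47.9% of them were above it in at most 6 cells. Over genes above the floor in at least 24 cells the median was 0.11. Only 3 of the 10 members were in that class, so neither median is a like background. The germ cell genes stood higher in the same labelled KO cells, *Dppa3* by 3.51 (pooled SD 1.81, means 12.55 and 9.05), *Prdm1* by 1.73 (1.09, means 11.85 and 10.11) and *Prdm14* by 4.0 (1.71, means 11.40 and 7.40), and their part in the lower values was not tested.

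Against cells labelled *Prdm14*+/-, those labelled *Prdm14* KO were higher by 1.27 in *Tbx6* (pooled SD 1.43) and lower in *Hand1* (-1.42, pooled SD 2.05), where 6.81% of all genes were higher and 3.7% lower. Without the 3 *Foxf1* cells *Hand1* came to -0.69, *Tbx6* to 0.93 and *Cdx1* to -1.03. *Tbx6* was also at 0.93 without replicate 2 or without replicate 4 labelled *Prdm14* KO. Within run 3, which holds both labels, *Tbx6* was higher by 1.34 (pooled SD 1.65) and 4 members were lower, *Hand1* (-2.30, pooled SD 1.80), *Mesp1* (-1.68, 2.62), *Mixl1* (-1.57, 1.23) and *Snai1* (-1.38, 1.23), against 8.6% of genes higher and 5.62% lower. The values for *Hand1*, *Mixl1* and *Snai1* exceeded this pooled SD. For *Mixl1* and *Snai1* the floor lowers it, since the SD in cells labelled *Prdm14* KO was 0 and 0.34. In the cells labelled *Prdm14*+/- of that run the SD was 1.55 for *Mixl1* and 1.54 for *Snai1*, which the *Snai1* difference did not exceed. Without the 2 *Foxf1* cells of that run *Hand1* was at -1.53, *Mixl1* at -1.43, *Mesp1* at -0.72, *Snai1* at -0.47 and *Tbx6* at 0.83, and *Cdx1* at -1.53.

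Between cells labelled *Prdm14*+/- and WT no member differed by 1 or more in either direction (2.42% of genes were higher and 1.95% lower). The largest difference was that of *Mesp1*, -0.75 with a pooled SD of 2.61, which came to -1.34 without the *Foxf1* cells. Within run 2, *Mesp1* was lower by 3.54 in cells labelled *Prdm14*+/- (means 8.03 and 11.57, pooled SD 2.05), and *Eomes* (-1.86) and *Mixl1* (-1.54) were lower too, where 8.3% of genes were lower and 6.02% higher. Without the cell with the highest *Eomes*, *Mesp1* was at -2.82 and *Cdx1* higher by 1.66, while *Mixl1* came to 0.15 and *Eomes* to 0. With the array run as a block in the fit, 5 members were lower and none higher in labelled KO cells against labelled WT cells, with 11.7% of genes lower and 12.5% higher. That fit links the labels through the *Prdm14*+/- cells and so uses only the 3 run 2 cells among those labelled WT: *Mesp1* was at -5.22, and *Tbx6* at 0.60, with the cell of the highest *Eomes*, and at -4.50 and 1.25 without it. Without that cell 3 members were lower, *Mesp1*, *Hand1* (-2.93) and *Mixl1* (-1.43), and *Tbx6* was higher, while *Snai1* came to -0.74 and *Eomes* to 0. The KO and WT labels and the runs cannot be told apart in the remaining cells. *Cdx2* differed by at most 0.01 in the 3 pooled comparisons, which changed to -0.73 for KO and WT once the 75th percentile of all arrays was made equal. It was higher by 0.70 in cells labelled *Prdm14*+/- than in those labelled WT within run 2 (pooled SD 0.46), and by 0.90 for KO and WT with the block. The SD pooled over all cells of the KO and WT labels was 0.73, which does not measure the spread of the block estimate.

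**Figure D3:**
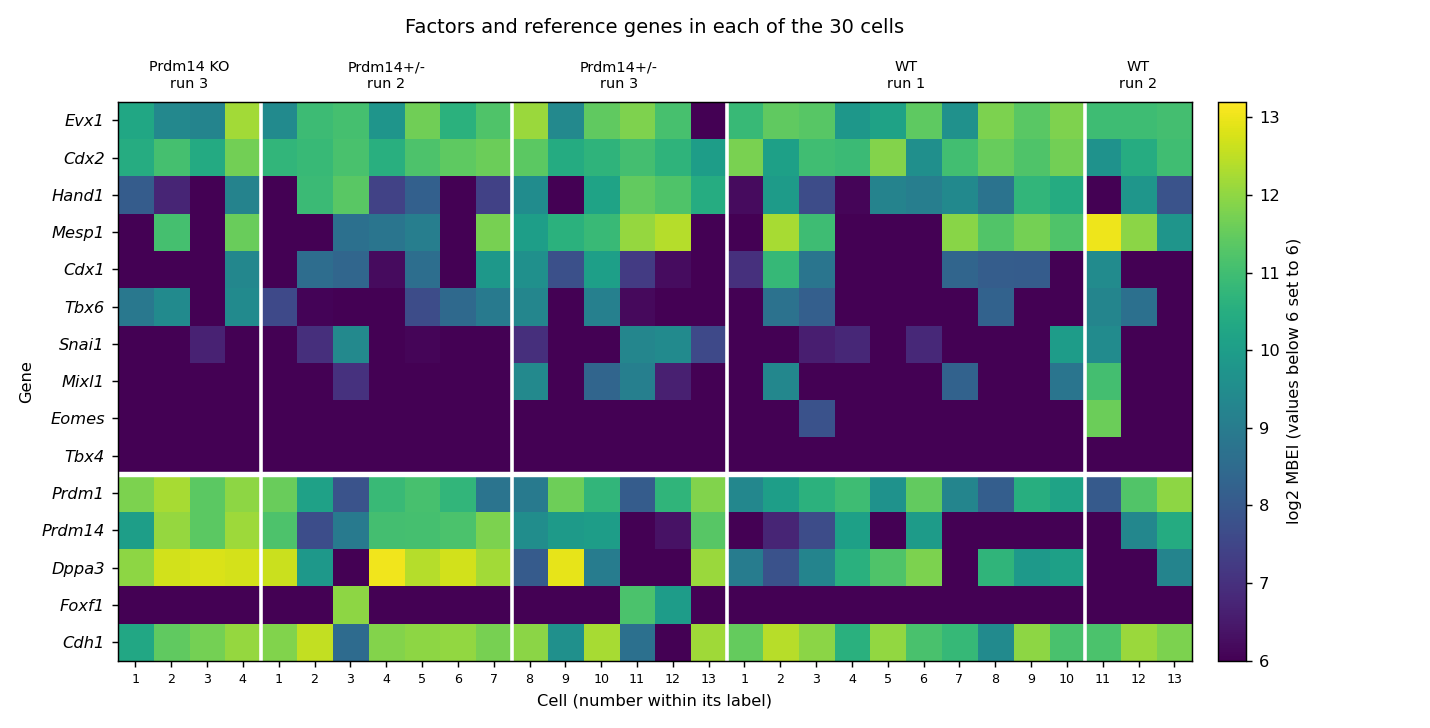
Log2 MBEI, values below 6 set to 6, of the 10 factors and 5 reference genes (rows) in each cell (columns, numbered within their label), grouped by label and array run. Foxf1 is above the floor in cells 3, 11 and 12 labelled Prdm14+/-, in which Hand1 and Snai1 are high and Cdh1 and Dppa3 low.

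Cell by cell, the factors were weakly related. A cell had 3 to 8 of the 10 above the floor, with a median of 4.5 in cells labelled *Prdm14* KO (3 to 6), 6 in those labelled *Prdm14*+/- (3 to 8) and 5 in those labelled WT (3 to 8). Of the 21 pairs of the 7 members above the floor in at least 10 cells, 17 (81%) had a correlation above 0 and 1 reached 0.5 (median 0.22). Over all pairs of the 8527 genes above the floor in as many cells, 52.7% had r above 0 and 0.639% reached 0.5 (median 0.01). The pairs share their cells and arrays, so r is a description over 30 cells with no test. *Mesp1* and *Cdx1* stood at the top with r = 0.53 (Spearman 0.50), at 0.59 after centring within label and run, and at 0.49 without the cell with the highest *Eomes*. *Evx1* with *Cdx1* (0.48), *Cdx1* with *Tbx6* (0.47, and 0.60 centred) and *Mesp1* with *Evx1* (0.45) came next. *Tbx6* and *Snai1* were lowest at -0.26, or -0.09 without the 3 *Foxf1* cells and -0.41 without the cell with the highest *Eomes*. *Snai1* and *Hand1* had r = 0.41 over all cells, 0.11 without the *Foxf1* cells and 0.57 without the cell with the highest *Eomes*.

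The 9 cells with *Mixl1* all had *Mesp1*, *Evx1* and *Cdx2* above the floor, 8 had *Cdx1*, 8 *Hand1*, 6 *Snai1* and 5 *Tbx6*. Over the 30 cells *Cdx2* was above it in 30, *Evx1* in 29, *Hand1* in 25, *Mesp1* in 20, *Cdx1* in 18, *Tbx6* in 16 and *Snai1* in 13, so the shares for *Evx1*, *Cdx2*, *Hand1* and *Tbx6* lay near those of all cells. Correlations of *Mixl1* were 0.53 with *Snai1*, 0.51 with *Mesp1*, 0.49 with *Cdx1*, 0.31 with *Evx1*, 0.25 with *Hand1*, 0.24 with *Tbx6* and -0.20 with *Cdx2*. Without the cell with the highest *Eomes* they were 0.41 with *Snai1*, 0.45 with *Mesp1*, 0.44 with *Cdx1*, 0.50 with *Hand1* and 0.12 with *Tbx6*. Both cells with *Eomes* had *Mesp1*, *Evx1*, *Cdx1*, *Cdx2*, *Tbx6* and *Snai1* above the floor, and 1 of them had *Mixl1*.

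**Figure D4:**
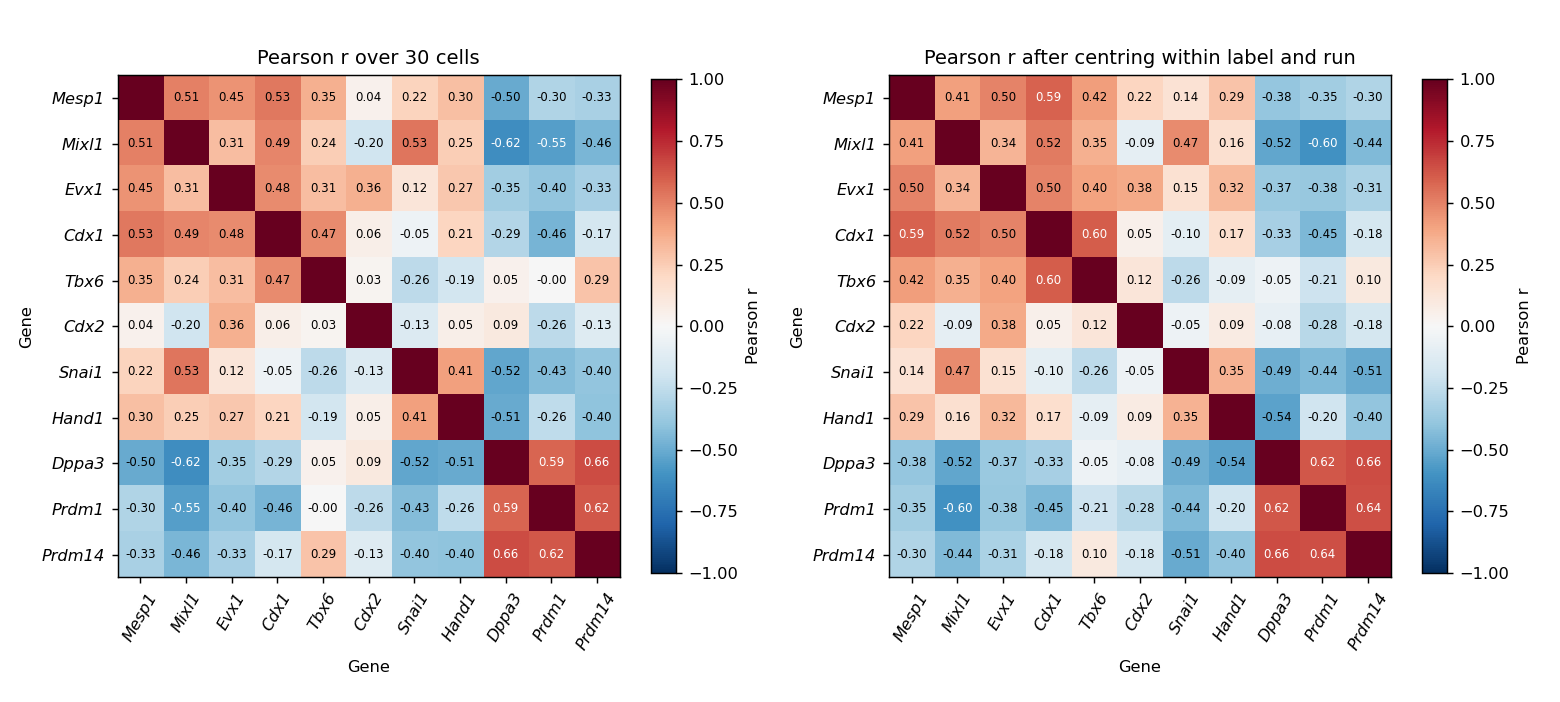
Pearson correlation of floored log2 MBEI between factors and with Dppa3, Prdm1 and Prdm14, over 30 cells (left) and after centring within label and run (right). Mixl1, Snai1, Hand1 and Mesp1 have r from -0.62 to -0.50 with Dppa3, and Tbx6 and Cdx2 are near 0.

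The germ cell gene *Dppa3* ran opposite to part of the factors. Its correlation was -0.62 with *Mixl1*, -0.52 with *Snai1*, -0.51 with *Hand1* and -0.50 with *Mesp1*, and weaker with *Evx1* (-0.35) and *Cdx1* (-0.29), whereas it was 0.05 with *Tbx6* and 0.09 with *Cdx2*. These last 4 varied between runs and labels: *Evx1* had 0.31 within run 1 and 0.23 in cells labelled WT, *Tbx6* -0.53 in cells labelled WT, *Cdx2* 0.52 within run 2, and *Cdx1* -0.65, -0.20 and -0.21 within runs 1, 2 and 3. *Dppa3* was 0 to 10.10 (median 4.63) in the 9 cells with *Mixl1*, and its median was 11.98 in the 21 cells without, 13 of which exceeded 11. *Mesp1* gave a like picture: all 10 cells without it had *Dppa3* above the floor, at 9.02 to 12.80, against 14 of the 20 cells with it. Without the 3 *Foxf1* cells the correlation with *Dppa3* was -0.65 for *Mixl1*, -0.48 for *Mesp1*, -0.33 for *Hand1* and -0.25 for *Snai1*, so the values of *Hand1* and *Snai1* leaned on those cells. Without the cell with the highest *Eomes* it was -0.57 for *Mixl1*, -0.46 for *Mesp1*, -0.64 for *Hand1* and -0.46 for *Snai1*. After centring within label and run the correlation with *Dppa3* was -0.52 for *Mixl1*, -0.38 for *Mesp1*, -0.54 for *Hand1* and -0.49 for *Snai1*. Runs 2 and 3 each mix labels. Within runs 1, 2 and 3, *Mixl1* had r = -0.61, -0.56 and -0.76 with *Dppa3* and *Mesp1* had -0.57, -0.53 and -0.53. *Hand1* had -0.10, -0.48 and -0.78 and *Snai1* 0.22, -0.71 and -0.79, so these 2 showed no negative relation of that size in run 1, nor in cells labelled WT (0.07 and -0.08).

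*Prdm1*, which was above the floor in every cell and by which cells had been chosen, also ran lower where some factors were present. Its correlation was -0.55 with *Mixl1*, -0.46 with *Cdx1*, -0.43 with *Snai1* and -0.40 with *Evx1*. In the 9 cells with *Mixl1* it ranged from 7.83 to 10.73, and in the 21 without from 8.16 to 12.27. With *Tbx6* it had r = 0.00. Without the 3 *Foxf1* cells it had -0.53 with *Mixl1*, -0.50 with *Cdx1*, -0.27 with *Snai1* and -0.37 with *Evx1*. Leaving out the cell with the highest *Eomes* gave -0.47, -0.42, -0.35 and -0.41 for these. In cells labelled WT it had 0.01 with *Evx1*. Within runs 1, 2 and 3 it had -0.10, -0.63 and -0.92 with *Mixl1*, -0.26, -0.78 and -0.33 with *Cdx1*, 0.27, -0.83 and -0.61 with *Snai1*, and -0.01, -0.33 and -0.53 with *Evx1*, so in run 1 these relations were weak or of the other sign. The number of factors above the floor correlated with *Dppa3* at -0.62 and with *Prdm1* at -0.55 (-0.12, -0.72 and -0.76 within runs 1, 2 and 3). The same number had r = -0.22 with the share of probe sets listed at 0 and 0.40 with the mean of the probe sets above 0 on all arrays, and the part of array quality in these relations was not tested.

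**Figure D5:**
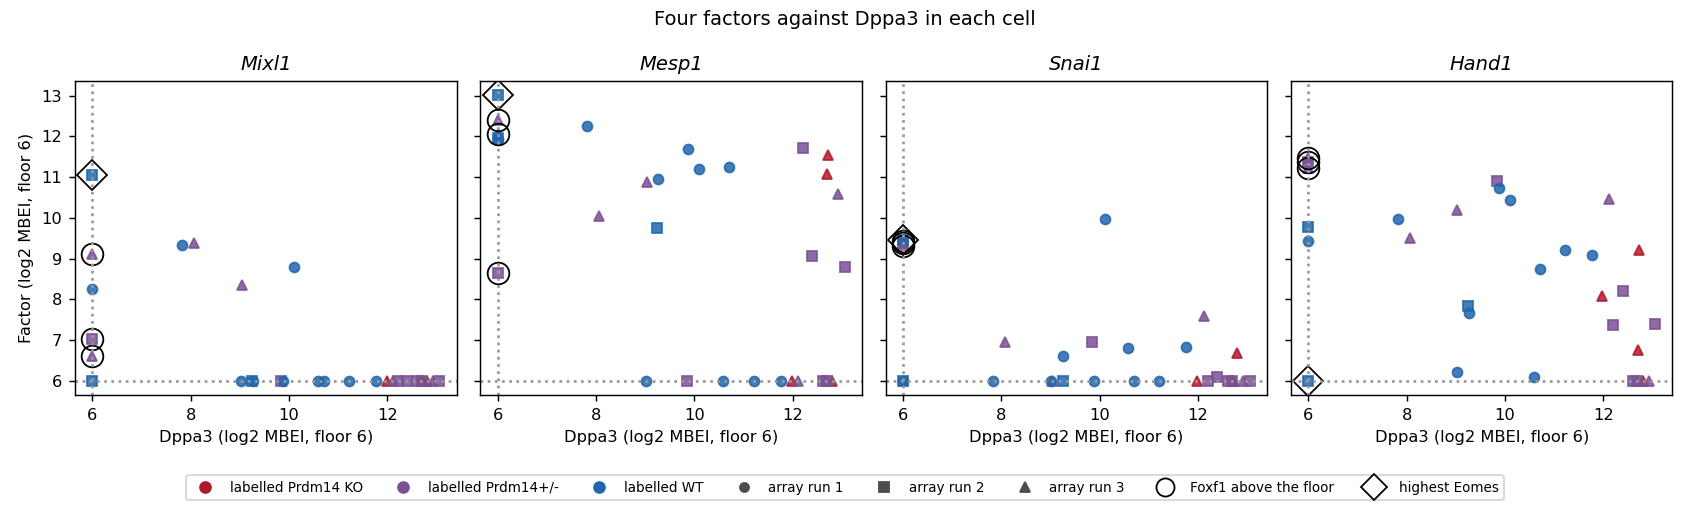
Mixl1, Mesp1, Snai1 and Hand1 against Dppa3 in each cell (log2 MBEI, values below 6 set to 6), coloured by label with symbols for the run. Circles ring the 3 cells with Foxf1 above the floor and diamonds the cell with the highest Eomes; no cell with Dppa3 above 10.10 has Mixl1 above the floor.

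*Snai1* and its known target were compared directly. Over the 30 cells *Snai1* and *Cdh1* correlated at r = -0.57 (Spearman -0.29), and at -0.06 without the 3 *Foxf1* cells. With *Foxf1* itself *Snai1* had r = 0.66. The opposite course of *Snai1* and *Cdh1* was therefore held by those 3 cells, and the 2 other cells with *Snai1* above 9 had *Cdh1* at 11.16 and 11.14.

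For each factor above the floor in at least 10 cells, the 3 genes of 8527 with the most similar order of cells were listed by Spearman correlation over the 30 cells. Each was picked for its high value among these genes, and the level that unrelated genes would reach was not computed. Nor were these values computed without the *Foxf1* cells, where *Hand1* was highest, or without the cell with the highest *Eomes*. *Hand1* had the closest ones, *Grb10* (0.83), an imprinted adaptor of growth factor receptors, *Spin2c* (0.82) and *Rac1* (0.81), a small GTPase. After *Mesp1* came *Cnpy2* (0.72), *Smad1* (0.64), which carries BMP signals, and *Spata13* (0.63). *Evx1* was followed by *Spring1* (0.71), *Ythdf3* (0.70) and *Fbxo5* (0.66), *Cdx1* by *Hyal2* (0.67), *Bccip* (0.67) and *Bcat1* (0.64), and *Cdx2* by *Sbf2* (0.63), *Wdr12* (0.59) and *Pik3r2* (0.59). *Tbx6* went with *Cytip* (0.67), *Brd7* (0.59) and *Ccdc84* (0.57), and *Snai1* with *Terf2ip* (0.65), *Clic4* (0.64) and *Sowahc* (0.63). After centring within label and run, the Pearson r of these pairs ranged from 0.40 (*Snai1* with *Clic4*) to 0.85 (*Hand1* with *Spin2c*). It was 0.43 for *Evx1* with *Fbxo5*.

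Another 29 mesoderm and posterior factors were measured for comparison, only with the cells that stood apart kept in. Of these 5 were above the floor in most cells, the homeobox genes *Msx1*, *Msx2* and *Nkx1-2*, the zinc finger gene *Sp8* and *Foxh1*, which encodes a partner of SMAD proteins, 7 in some and 17 in few. Over all genes the shares in these classes were 25.3%, 26.8% and 47.9%. Of the 29, those in no cell were *Gsc*, *Foxc2*, *Tbx2*, *Tbx5*, *Meox1* and *Zic2*, and *Msgn1*, a paraxial mesoderm gene like *Tbx6*, was in 3. *T* was not analysed here. Between cells labelled *Prdm14* KO and WT 3 of the 29 were higher and 5 lower, with a median difference of -0.04. Of all genes, 7.9% were higher and 4.32% lower. Differences of at least 1 in the same direction in that comparison and within run 3 against *Prdm14*+/- were found for 4 of the 29. The 2 comparisons share the same 4 labelled KO cells, and the share of all genes that passed both was not computed. *Isl1*, a LIM homeobox gene of cardiac progenitors, was above the floor in 0 of the 4 labelled KO cells and 8 of the 13 labelled WT cells (-2.26, pooled SD 1.81), and within run 2 it was lower by 2.88 in cells labelled *Prdm14*+/- than in those labelled WT. *Cdx4*, the third caudal gene, was above it in 0 of 4 and 6 of 13 (-1.09, 1.34), and *Tbx3* in 1 of 4 and 7 of 13 (-1.16, 1.82). *Tcf15*, a gene of the paraxial mesoderm, was above it in 3 of 4 and 1 of 13 (1.63, 0.91).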

How the data were processed

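The authors amplified the cDNA of single cells, hybridised each to 1 Affymetrix array and deposited log2 MBEI values, calculated with dChip 1.3 from differences of matched and mismatched probes. How arrays were scaled against each other, and why values are listed at 0, is not stated in the sources read here.

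Deposited values were used unscaled. Probe sets took their genes from the platform table (34958 of 45101 with 1 symbol, 932 with several, 9211 not listed), and a gene was read on its probe set of highest mean. Values below 6 were set to 6. Members, lists and named genes (the 10 members, genes of the other list past 1 in the same direction in 2 comparisons, and the 3 genes most alike) were chosen with earlier results of these data known. Marker lists were germ cell, blood and endothelial, endoderm, extraembryonic ectoderm (*Elf5* and *Tpbpa* in no cell), allantois, epiblast and ectoderm (*Otx2*, *Sox1* and *Pax6* in no cell), and epithelial and mesenchymal genes (5, of which 4 were above the floor in most cells).

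Alternatives were floors of 4 and 8, 3 scalings, medians, the array run as a block or single runs, leaving out single cells, and other probe sets. The computation of differences was checked on simulated data. Promoters came from RefSeq (GRCm38.p6), and those of 7 of 10 members were searched. Promoter rows of members on chromosome 18, where *Cdx1* lies, were left out. No 2 arrays were identical (r between arrays 0.578 to 0.737). Python 3.11.15, NumPy 2.4.6, pandas 2.3.3, SciPy 1.17.1 and matplotlib 3.10.9 were used.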

Additional observations from a re-analysis of the deposited data

Results flagged for a closer look

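In the 4 cells labelled *Prdm14* KO, 3 of the 7 factors that varied among them had 1 cell far from the other 3. The gap between that cell and the nearest other one was 1 times the whole range for *Cdx1* (replicate 4 at 9.33, the others at or below the floor) and for *Snai1* (replicate 3 at 6.68, the others at or below the floor), where the floor makes the other 3 cells equal. It was 0.833 of the range for *Tbx6* (replicate 3 at 4.02, set to the floor of 6 here, and the others at 8.88 to 9.46). Chance gives such a gap in about 1 in 20 groups of values without a floor, a rate that does not apply here, since the floor enters all 3 ratios.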

How the results depend on the processing

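The *Tbx6* and *Hand1* differences of 1 or more over all cells kept their sign under the alternatives run, as did *Mesp1*, and *Mixl1* came to 0 with medians. Within single runs or labels signs did change: *Mixl1* within run 2 without the cell with the highest *Eomes*, *Snai1* with *Dppa3* in run 1 (0.22) and *Hand1* with *Dppa3* in cells labelled WT (0.07). Of the differences of single factors, 292 of 306 moved by less than the SD between cells, as did 79 of 81 under alternatives chosen after seeing the data. Counts of factors past 1 moved more. The share of all genes past 1 was computed only for the main comparisons, those within single runs, and KO and WT with the block. The other counts here have no such share beside them and describe only these factors. Between cells labelled *Prdm14* KO and WT, 1 was higher and 3 lower. With a floor of 4 on the log2 scale 5 were lower, with a floor of 8 there were 0 higher and 0 lower, and with the run as a block 0 were higher and 5 lower. Leaving out 1 cell labelled *Prdm14* KO gave 1 to 5 lower, and leaving out the cell with the highest *Eomes* gave 1. Between *Prdm14* KO and *Prdm14*+/-, 1 was higher and 1 lower. None was higher with the floor of 8 (0), with the 75th percentile made equal (0), without the *Foxf1* cells (0), or within run 3 without them (0). Lower counts were 4 with the floor of 4, 3 with medians, 4 with the block, 4 within run 3 and 3 within run 3 without the *Foxf1* cells. Leaving out 1 cell labelled *Prdm14* KO gave 0 to 1 higher and 1 to 3 lower. Between *Prdm14*+/- and WT, 0 were higher and 0 lower. Lower counts were 1 with the 75th percentile, 1 with medians, 1 without the *Foxf1* cells, 3 with the block and 3 within run 2, and 1 was higher and 1 lower within run 2 without the cell with the highest *Eomes*. Fewer cells enter the comparisons within runs, and a higher floor shortens every difference that touches it. For the rest the cause was not tested. With a floor of 4 *Mesp1* (27 cells) joined the class of most cells, and with a floor of 8 *Hand1* (18) fell to some and *Snai1* (5) to few. The counts in the classes, the 17 pairs above 0 and the 6 factors below 0 against *Dppa3* stayed within 1.5 times. No paired analysis was possible because replicate numbers only name cells and no result comes from a test. The 4 cells labelled *Prdm14* KO and the values at 0 limit what can be seen.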
